A study of Homo sapiens with 8 samples.

Results

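The genes described here are IDH1 and 8 further dehydrogenases, synthases and hydratases of the citric acid cycle and its cytosolic counterparts, taken by gene name from the array design with all of their probes. They were IDH1, IDH2, IDH3A, CS, OGDH, SDHA, FH, MDH1 and MDH2, which makes 9 of the 43317 gene names on the array, read by 14 of its 58201 probes. The list was chosen by the log2 ratio of IDH1 after miR-199-3p and by the mock levels, which were known from these same arrays, so those values are given as a description with no test.

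RNA of mock and of treated cells of 4 human cancer lines was hybridised together on each of 8 two-colour Agilent arrays of 1 slide, mock RNA in Cy3 and treated RNA in Cy5, with no dye swap. PC3, a prostate cancer line, was given bisamide for 24 h or for 48 h, or miR-125b-1-3p. C4-2, derived from the prostate cancer line LNCaP, was given miR-199-3p. The renal cell carcinoma line 786-O was given miR-532-5p or miR-532-3p, and the bladder cancer line T24 was given miR-140-5p or miR-140-3p, in each case both strands of 1 miRNA precursor. Bisamide is a small molecule that has been used as an inhibitor of pirin, an iron-binding nuclear protein. All mock cells are labelled as not transfected, so no array held RNA of cells given a control RNA, and C4-2 was on 1 array only. The labels list bisamide as transfected and give neither its dose nor that of the miRNAs.

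The citric acid cycle oxidises the acetyl group of acetyl-CoA in the mitochondrial matrix and hands the electrons to the respiratory chain. Citrate synthase starts it, isocitrate dehydrogenase 3 and the oxoglutarate dehydrogenase complex carry its oxidative decarboxylations, and succinate dehydrogenase, fumarase and malate dehydrogenase 2 return it to oxaloacetate. IDH1 in the cytosol and peroxisomes and IDH2 in mitochondria use NADP+ and are separate gene products from the NAD+-dependent IDH3 complex of the cycle proper. Mutant IDH1, IDH2, SDHA and FH are each known in human tumours, where 2-hydroxyglutarate, succinate or fumarate builds up. Prostate epithelium is known for secreting citrate in place of oxidising it.

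A log2 ratio below is treated over mock RNA on 1 array, after background correction and loess normalization, and 0 means equal signal. Each gene is represented by its probe with the highest mean intensity. With 1 array in each group there was no replicate of any treatment, no p-value was computed, and precision is limited by the number of arrays. Each member probe had 1 spot on an array. Repeated spots of other probes had a median SD of 0.0389 to 0.0527 on the log2 scale within an array, which leaves out the spread between cultures. Fewer cells with a transcript and less of it per cell cannot be told apart in bulk RNA.

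The line labels were checked in the mock channels. KLK3, the prostate-specific antigen gene, had an intensity of 13592 in C4-2 and was not well above background in the other lines, and KLK2 and TMPRSS2 were also brightest in C4-2. CDH6 was well above background in 786-O alone, whereas PAX8 and PAX2, also taken as markers of 786-O, had higher unnormalized intensities in T24 (390 to 423 and 551 to 619) than in 786-O (235 to 239 and 112 to 124). Of 5 urothelial markers, UPK1A was well above background in the T24 mocks, at 30.7 to 37.9, and UPK2, UPK3A, GATA3 and KRT5 were not. The PC3 mock on the miR-125b-1-3p array had an EPCAM intensity of 476, whereas those of the bisamide arrays had 119 to 121. Between mocks of the same line, 0 to 12 of 12747 genes differed by more than 1.5 on the log2 scale, against 383 to 970 between lines.

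IDH1, the cytosolic NADP+-dependent isocitrate dehydrogenase, was read by 1 probe at chr2:209101326-209101385 of GRCh37 on the minus strand, from base 1957 of NM_005896. Its mean spot intensities on the miR-199-3p array were 875 in mock C4-2 and 316 in treated C4-2, so that the mock channel was the brighter. On the bisamide arrays it was 323 in mock and 666 in treated PC3 at 24 h, and 363 and 692 at 48 h. With miR-125b-1-3p in PC3 it was 480 and 905. In PC3 the treated channel was thus the brighter on all 3 arrays before normalization. On these arrays Cy5 was the brighter channel for every member probe, as for CS with 5161 in mock and 9644 in treated cells at 24 h. A brighter Cy5 spot therefore does not by itself mean a higher normalized ratio. In 786-O the IDH1 intensity was 139 and 108 with the 5p strand, and 142 and 191 with the 3p strand. In T24 it was 311 and 529 with the 5p strand, and 325 and 618 with the 3p strand. Cy5 was the brighter channel of the IDH1 spot on 6 of the arrays and Cy3 on the miR-199-3p and miR-532-5p arrays. The plot of IDH1 intensities shows the reversed order on the miR-199-3p array.

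**Figure D1:**
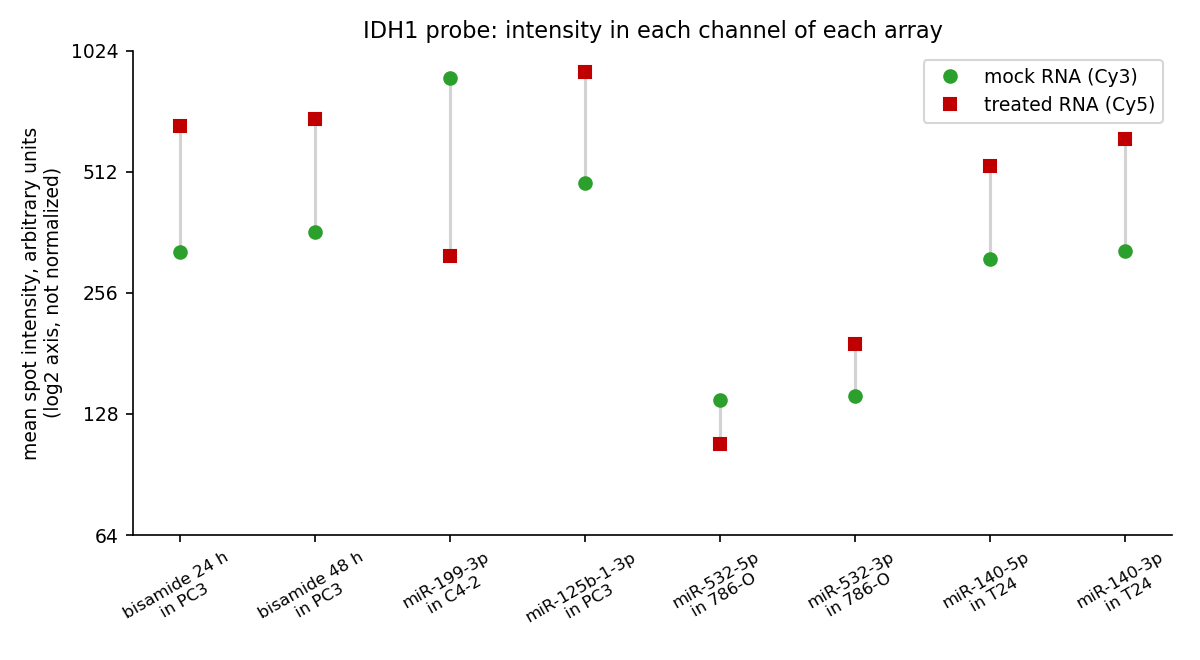
Mean spot intensity of the IDH1 probe (y axis, log2 scale, arbitrary units, not normalized) in the mock channel (Cy3, circles) and the treated channel (Cy5, squares) of each of the 8 arrays (x axis). On the miR-199-3p array the mock signal of 875 lay above the treated signal of 316, and the grey lines join the channels of 1 array.

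After normalization the log2 ratio of IDH1 was −1.96 with miR-199-3p, which is a mock signal 3.89-fold that of the treated cells. In PC3 it was 0.25 and 0.15 with bisamide at 24 h and 48 h and 0.17 with the miRNA. In 786-O it was −0.11 with the 5p and 0.092 with the 3p strand of miR-532, and in T24 it was 0.092 with the 5p and 0.15 with the 3p strand of miR-140. The other 7 arrays thus lay between −0.11 and 0.25, with a median of 0.15. Of 15686 genes whose 2 channels were well above background on the miR-199-3p array (called measured from here on), IDH1 had the fourth lowest ratio. It was 1 of 8 measured members below −1.5 there, where 0.102% of all measured genes were, and no member was above 1.5, where 0.0191% were. On the other arrays 0 members were past 1.5 in either direction. Past that size were 0.078% of all measured genes with bisamide at 24 h, 0.0368% at 48 h and 0.0107% with the miRNA in PC3, 0.102% and 0.149% with the 5p and 3p strands in 786-O, and 0.142% and 0.0114% with those in T24. The value of a member nearest to it was −0.79.

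The log2 ratio of IDH1 with miR-199-3p was negative under every processing alternative run, from −2.22 with the ratio of the scanner software to −1.39 with median centring in place of loess. The last value is above −1.5, so the count of members called lower was 0 under median centring. That centring left the median of all measured genes at 0.30 on this array, and IDH1 was −1.69 relative to it. On the other arrays it placed the median of all measured genes between −0.033 and 0.45.

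**Figure D2:**
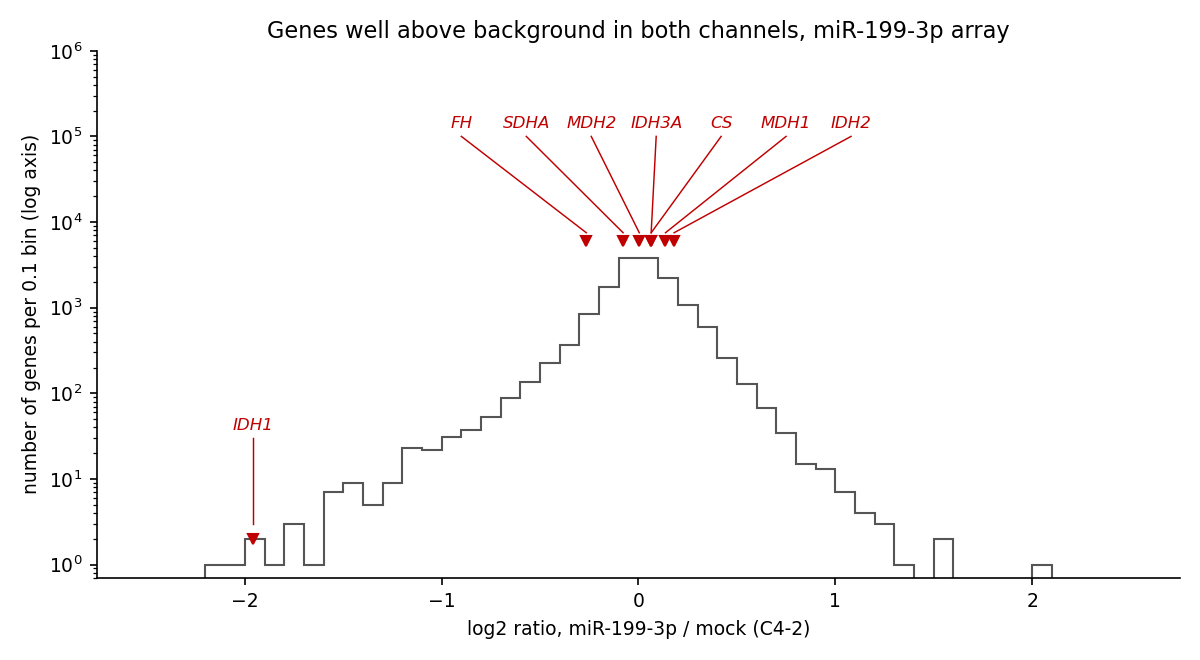
Distribution of the log2 ratio, miR-199-3p over mock in C4-2 (x axis), over the 15686 measured genes, as the number of genes per bin (y axis, log scale). Triangles mark the 8 measured members: IDH1 at −1.96 stands in the lower tail and the other 7 lie between −0.27 and 0.18.

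The other isocitrate dehydrogenases did not share this value. IDH2, the mitochondrial NADP+-dependent enzyme, had a log2 ratio of 0.18 with miR-199-3p, from intensities of 331 in mock and 576 in treated C4-2. IDH3A, the catalytic subunit of the NAD+-dependent complex, was at 0.064 there. The 7 members other than IDH1 that were measured on this array lay between −0.27 (FH) and 0.18 (IDH2), with a median of 0.064 beside 0.010 for all genes. OGDH, a subunit of the oxoglutarate dehydrogenase complex, was well above background in the treated channel but not in the mock channel of this array.

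The transfected strands are shown for the arrays on which a member went past 0.5 by its representing probe. Capitals mark the seed (bases 2 to 8). The labels name miR-199-3p without saying a or b, and RefSeq gives the same mature sequence for both.
miR-199a-3p: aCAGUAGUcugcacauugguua
miR-199b-3p: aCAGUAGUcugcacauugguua
miR-532-5p: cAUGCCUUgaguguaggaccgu
miR-532-3p: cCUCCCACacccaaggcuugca

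No seed is shared between these strands except by the miR-199-3p pair. FH, which hydrates fumarate to malate, had a log2 ratio of −0.27 with miR-199-3p, and 7.93% of the measured genes were lower. Its intensities there were 286 in mock and 346 in treated cells. Under median centring its ratio was 0.25, where the median of all measured genes was 0.30.

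**Figure D3:**
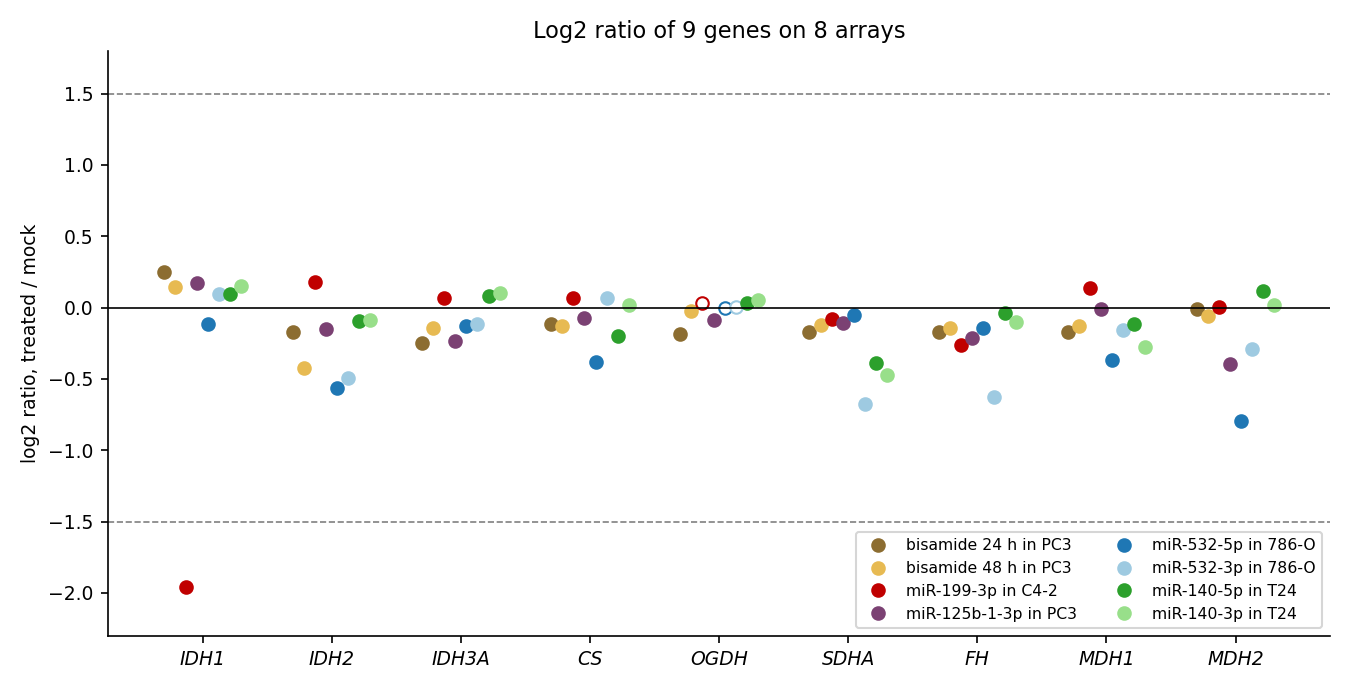
Log2 ratio of treated over mock signal (y axis) for the 9 genes (x axis) on each of the 8 arrays (colours), with dashed lines at −1.5 and 1.5. Open circles mark OGDH on the 3 arrays where it did not stand well above background in both channels; IDH1 with miR-199-3p at −1.96 is the single point past a dashed line.

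The members after IDH1 with the lowest ratios were in 786-O. MDH2, the mitochondrial malate dehydrogenase, read at chr7:75694196-75694255 (GRCh37, plus strand), had a log2 ratio of −0.79 with miR-532-5p, from an intensity of 1185 in mock and 614 in treated cells. It was −0.29 with the other strand in 786-O, −0.011 and −0.060 with bisamide and −0.39 with the miRNA in PC3, 0.0040 in C4-2, and 0.12 and 0.020 in T24 with the 5p and 3p strands. Under median centring the PC3 value with the miRNA was 0.38 and the miR-532-3p value was 0.25, where the medians of all measured genes were 0.42 and 0.17. MDH2 was thus lowest with miR-532-5p, and its value there stayed between −0.89 and −0.78 over 9 settings of the processing. IDH2, whose 60-base probe spans 235 bp of the genome at chr15:90630472-90630706 (minus strand) and so joins exons, was at −0.56 with miR-532-5p (183 in mock, 96.0 in treated) and at −0.49 with miR-532-3p (187 and 155). In PC3 it was −0.17 and −0.43 with bisamide at 24 h and 48 h and −0.15 with the miRNA, and in T24 it was −0.092 and −0.086 with the 5p and 3p strands. Both 786-O values of IDH2 stayed below 0 over the 9 settings, between −0.80 and −0.41 for miR-532-5p and between −0.66 and −0.20 for miR-532-3p.

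With miR-532-5p, 2 of 8 measured members (IDH2 and MDH2) were below −0.5, where 3.67% of all genes were. CS, citrate synthase, was at −0.38 and MDH1, the cytosolic malate dehydrogenase, at −0.37 on that array. The second probe of MDH1 gave −0.46, and that of CS gave −0.092, so the CS probes differed by 0.29. All 8 measured members were below 0 there, with a median of −0.26 beside 0.0011 for all genes, of which 49.8% were below 0, and all 8 were also below 0 under median centring, whereas relative to the median of the other arrays SDHA was at 0.12 and FH at 0.025. On this array Cy3 was the brighter channel of the IDH1, IDH2, IDH3A, CS, SDHA, FH, MDH1 and MDH2 spots alike.

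With miR-532-3p, 2 of 8 measured members were also below −0.5, where 3.84% of all genes were, and they were SDHA and FH. SDHA, the flavoprotein subunit of succinate dehydrogenase, which is both a cycle enzyme and complex II of the respiratory chain, was at −0.67 (1442 in mock, 1319 in treated) by its representing probe at chr5:256725-256784 (plus strand). FH was at −0.62 (248 and 192). The miR-532 strands thus had different members past −0.5 in this processing. For the 5p and the 3p strand MDH2 was at −0.79 and −0.29 and IDH2 at −0.56 and −0.49. SDHA was at −0.051 and −0.67, and FH at −0.15 and −0.62. IDH2 was just short of −0.5 with the 3p strand, and it reached −0.66 there over the settings, so the lack of overlap rests on the processing. The share of all genes past −0.5 with 1 strand alone is not given. With 1 array for each strand this difference was not tested. Over the 9 settings SDHA with miR-532-3p was between −0.74 and −0.13 and FH between −0.79 and −0.30.

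SDHA was the member with the most probes, and 3 of its 4 probes are also listed for the pseudogenes SDHAP1 and SDHAP2 or SDHAP3, so that their signal cannot be given to SDHA alone. The probe listed for no other gene, at chr5:235411-236558, gave −0.66 with miR-532-3p in 786-O, and in T24 it gave −0.52 with miR-140-5p and −0.50 with the 3p strand. The 4 probes together lay between −0.89 and −0.65 with miR-532-3p. In T24 they lay between −0.66 and −0.39 with miR-140-5p and between −0.70 and −0.47 with the 3p strand. On the other 5 arrays they lay between −0.30 and 0.0012. After loess each of the 4 probes was therefore lower on 3 arrays than on any other array. Under median centring this order was lost for the representing probe, which was at −0.12 with miR-532-5p, below its T24 values of 0.52 and 0.46. Both T24 arrays and 1 of the 786-O arrays were among these 3.

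**Figure D4:**
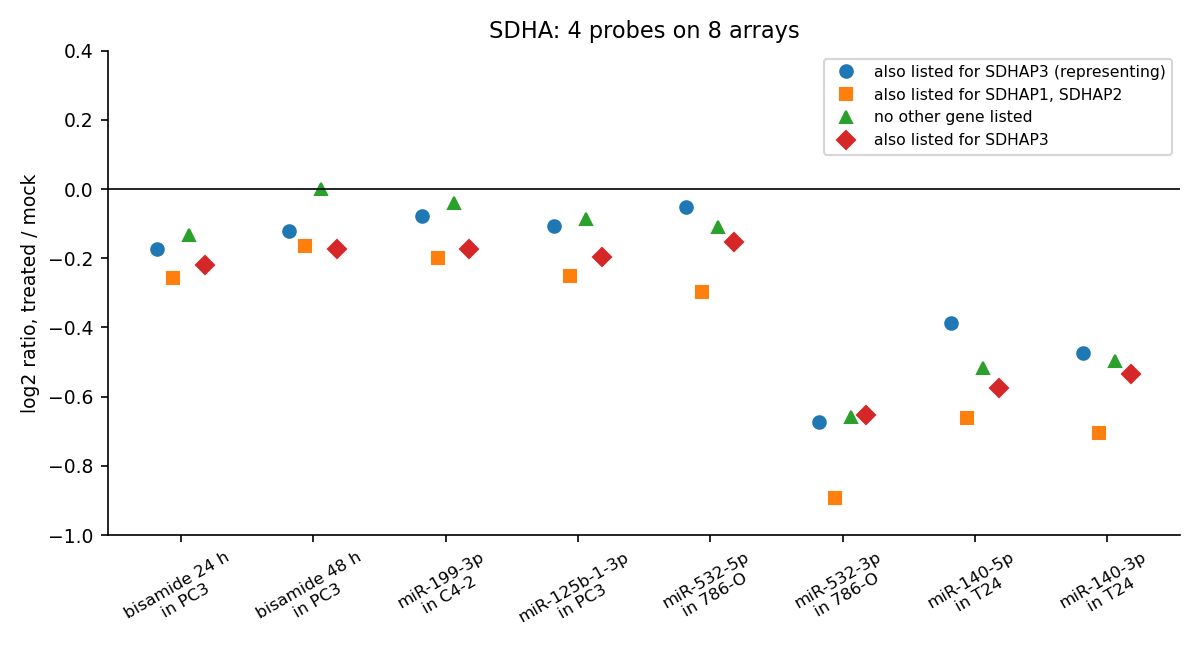
Log2 ratio of treated over mock signal (y axis) of the 4 SDHA probes (symbols, with the pseudogenes each is also listed for) on the 8 arrays (x axis). All 4 probes lie between −0.89 and −0.39 with miR-532-3p and with both miR-140 strands, and between −0.30 and 0.0012 on the other 5 arrays.

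The sign of the SDHA ratio in T24 depended on the normalization: the representing probe was at −0.39 with the 5p and −0.47 with the 3p strand of miR-140 after loess, and at 0.52 and 0.46 with median centring. The medians of all measured genes were then 0.35 and 0.45, so SDHA was 0.17 and 0.0088 above them. The difference between its ratio and that of CS on the same array did not turn. SDHA minus CS lay between −0.42 and −0.14 with miR-140-5p, between −0.66 and −0.48 with its 3p partner and between −0.87 and −0.73 with miR-532-3p over the 9 settings. With bisamide it lay between −0.091 and 0.22. The difference also kept its sign with miR-199-3p, between −0.24 and −0.086, which overlaps the range of miR-140-5p, and with miR-532-5p, between 0.086 and 0.43. A difference of 1 sign over the settings was thus found on 5 of the 8 arrays and was not particular to T24 or miR-532-3p, and no array repeats it.

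The partner subunits of SDHA were read from a list of 46 further genes of the pathway. SDHB, the iron-sulfur subunit, was at −0.13 with miR-532-3p, and at 0.27 and −0.10 with the 5p and 3p strands of miR-140. SDHC, a membrane anchor, was at −0.12, 0.21 and −0.15 on the same arrays, and SDHD, the other anchor, at −0.18, −0.24 and −0.19. No partner subunit was below −0.5 on any of the 3 arrays. SUCLG2, the GTP-forming subunit of succinyl-CoA ligase, was at −0.71 with miR-532-3p and −0.45 with miR-532-5p.

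In T24, MDH1 was at −0.11 with miR-140-5p and −0.28 with the 3p strand, CS at −0.20 and 0.016, and IDH1, IDH3A, OGDH and MDH2 were between 0.020 and 0.15 on both arrays. By the representing probes no member was below −0.5 on the T24 arrays, where 2.89% and 1.09% of all genes were below −0.5. The count rests on the choice of probe, since the mean over the 4 SDHA probes was −0.54 and −0.55 on these arrays. The median of the 9 members was −0.041 and 0.016 on these arrays, beside 0.0096 and 0.017 for all genes.

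On the 3 PC3 arrays, 8 of 9 members were below 0 and IDH1 was the exception, whereas 45.5% to 45.7% of all genes were below 0. With bisamide at 24 h the 8 lay between −0.25 (IDH3A) and −0.011 (MDH2), and at 48 h between −0.43 (IDH2) and −0.025 (OGDH). With miR-125b-1-3p they lay between −0.39 (MDH2) and −0.0095 (MDH1). None was below −0.5, as were 0.4% of all genes with bisamide at 24 h, 0.878% at 48 h and 0.883% with the miRNA. That count rests on the processing. With the ratio of the scanner software, OGDH was at −0.57 with bisamide at 24 h and IDH2 at −0.61 at 48 h. The medians of the 9 members were −0.17, −0.13 and −0.11. Under median centring 0 of the 9 were below 0 on each PC3 array, with all genes at a median of 0.42 to 0.45. Relative to the median of other arrays, 5 and 4 of the 9 were below 0 with bisamide at 24 h and 48 h, and 4 with the miRNA. The medians of the members were then −0.034, 0.0087 and 0.020.

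SDHA and FH were below 0 on all 8 arrays after loess, FH from −0.62 to −0.041 and SDHA from −0.67 to −0.051. Under median centring each was above 0 on the 6 arrays outside 786-O, where the median of all measured genes was 0.30 to 0.45. IDH2 was the member nearest to −0.5 with bisamide, at −0.43 after 48 h and −0.17 after 24 h, from 179 in mock and 201 in treated cells at 48 h. Other settings took its 48 h ratio past −0.5, to −0.60 with plain subtraction, −0.53 without background correction and −0.61 with the ratio of the scanner software. Under median centring it was at 0.11 after 48 h and 0.40 after 24 h, where the medians of all measured genes were 0.44 and 0.45. The rank of IDH2 from the lowest was 265 of 19020 genes at 48 h and 1748 of 19241 at 24 h. The bisamide arrays had separate mock channels of the same line, and the change between the times was not tested.

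OGDH lay close to background. Its intensity in the mock channel was 38.4 to 44.8 in PC3, 26.7 to 28.3 in T24, 23.4 in C4-2 and 24.7 to 25.1 in 786-O, where a median spot of an array had 22.7 to 24.9. It was measured on 5 of 8 arrays, those of PC3 and T24, and its ratios there lay between −0.18 and 0.056. IDH3A lay between −0.25 and 0.10 on the 8 arrays, CS between −0.38 and 0.065 and MDH1 between −0.37 and 0.14.

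All 46 further genes of the pathway were on the array, SDHAF3 under the name ACN9 and SDHAF4 under C6orf57, and 42 to 45 of them were measured on an array. Their median log2 ratio was between −0.071 (miR-532-3p) and 0.035 (bisamide at 48 h). None was past 1.0 in size on any array. The few past 0.5 are named with their values already seen.

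PCK2, the mitochondrial phosphoenolpyruvate carboxykinase, was above 0.5 with bisamide, at 0.89 after 24 h and 0.57 after 48 h, and was the single pathway gene so placed on these arrays, where 1.05% and 0.915% of all genes were above 0.5. With miR-199-3p, MPC1, a subunit of the mitochondrial pyruvate carrier, was at 0.68, PDK3, a pyruvate dehydrogenase kinase, at 0.52 and PDP2, a pyruvate dehydrogenase phosphatase, at −0.54, where 1.75% of all genes were above 0.5 and 2.74% below −0.5. The succinate dehydrogenase assembly factor ACN9 was at −0.72 with miR-125b-1-3p. PC, pyruvate carboxylase, was at 0.74 with miR-532-5p and 0.64 with miR-140-5p, where 3.6% and 1.74% of all genes were above 0.5. MPC2, the other subunit of the pyruvate carrier, was at −0.63 with miR-532-3p and −0.65 with miR-140-5p. SLC25A11, the oxoglutarate and malate carrier, was at −0.54 with miR-140-5p. No pathway gene was past 0.5 with the 3p strand of miR-140.

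The ratios of other enzymes that make NADPH were nearer to 0 than that of IDH1 with miR-199-3p. PGD, a dehydrogenase of the pentose phosphate pathway, was at −0.13, and ME1, the cytosolic malic enzyme, was at −0.030. ACO1, the cytosolic aconitase, whose product is the substrate of IDH1, was at 0.31.

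The genes whose ratios over the 8 arrays came nearest to those of IDH1 were found by the root mean square difference of the log2 ratios, among 12578 genes measured on all arrays. They were MAGT1 (0.25), PIGF of glycosylphosphatidylinositol anchor synthesis (0.31), the RING finger gene RNF141 (0.31), the stress granule gene G3BP2 (0.32) and the lysosomal transporter gene DIRC2 (0.32). The median gene had 0.73. With miR-199-3p they were at −1.47, −1.51, −1.45, −1.52 and −1.27, each higher than the −1.96 of IDH1, and on the other 7 arrays they lay between −0.38 and 0.38. Nearness to IDH1 is set largely by its value with miR-199-3p, so low values there follow from how these genes were picked. The difference of the median gene from IDH1 also rests largely on that value. The points share 1 slide, and the labels do not say whether arrays of a line share their mock RNA.

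Mock levels were compared between lines as the Cy3 signal, on the log2 scale, after quantile normalization over the 8 arrays, for each gene on its own. The labels do not say that mocks of a line were separate cultures, so their spread, a pooled SD of 0.144 in PC3, 0.0614 in 786-O and 0.0469 in T24, may be technical. IDH1 was at 10.49 in C4-2. It was at 8.23 and 8.25 in the T24 mocks, at 7.995, 8.18 and 8.41 in the PC3 mocks and at 8.06 and 8.08 in the 786-O mocks. C4-2 stood apart, and the ranges of T24 and PC3 and of PC3 and 786-O overlapped. The difference of C4-2 from the PC3 mean was 2.29, or 4.90-fold, and 98.9% of the genes measured in both lines had a lower difference. It lay between 2.19 and 2.48 over the alternatives, also without any 1 of the PC3 mocks.

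**Figure D5:**
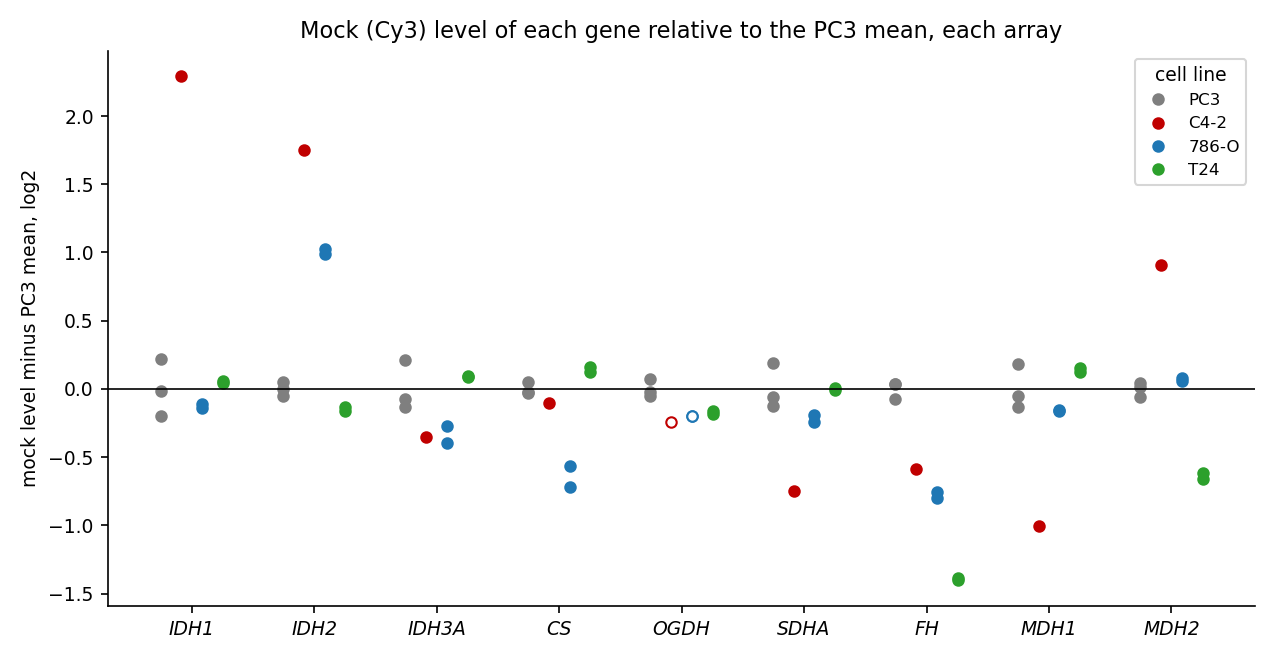
Mock level (Cy3, log2, quantile normalized) of each of the 9 genes minus the mean of that gene in the PC3 mocks (y axis), for every mock channel of PC3, C4-2, 786-O and T24 (colours). IDH1 at 2.29 and IDH2 at 1.75 in C4-2 are the highest points and FH at about −1.39 in T24 the lowest; open circles mark OGDH in the lines where it did not stand well above background.

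The line with the highest IDH1 mock level was thus also the line given miR-199-3p. The mock level of IDH1 in C4-2 plus its log2 ratio came to 8.53, and the same sum was 7.94 to 8.58 on the other arrays. The high mock level and the low ratio share the same Cy3 reading of the IDH1 spot, so they are not independent. That reading largely cancels in the sum, which mostly reflects the Cy5 signal. C4-2 was given this miRNA alone and no other line was given it, so whether the ratio depended on the line cannot be told apart from the miRNA, and IDH1 was not measured with miR-199-3p in a line with a lower mock level.

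IDH2 was also highest in C4-2, at 9.17, followed by 786-O at 8.40 and 8.44, PC3 at 7.36 to 7.47 and T24 at 7.25 and 7.29, in ranges that did not overlap. Its difference from PC3 was 1.75 in C4-2 and 1.01 in 786-O. Before normalization the IDH2 intensity was 331 in the C4-2 mock, 183 to 187 in the 786-O mocks and 179 to 211 in the PC3 mocks. The higher level of IDH2 in 786-O than in PC3 thus rests on the scaling between arrays. The gap between PC3 and T24 was smaller than the range among the PC3 mocks. IDH1 and IDH2 were 2 of 8 measured members more than 1.5 higher in C4-2 than in PC3, where 3.82% of all genes were, and no member was more than 1.5 lower, where 3.59% were. No member was past 1.5 between 786-O and PC3 (2.38% higher and 1.6% lower) or between T24 and PC3 (1.47% and 1.9%).

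The mock levels of MDH1 and MDH2 in C4-2 differed from those in PC3 in opposite directions. The cytosolic MDH1 was at 11.51 in C4-2, against 12.39 to 12.70 in PC3, a difference of −1.01, and it was lowest in C4-2 of the 4 lines. The mitochondrial MDH2 was at 11.72 in C4-2 and at 10.75 to 10.86 in PC3, a difference of 0.91, and was highest in C4-2. Over the alternatives these differences lay between −1.07 and −0.83 and between 0.88 and 1.16. Before normalization the MDH2 intensity was 2463 in the C4-2 mock and 2566 to 2856 in the PC3 mocks. Its higher level in C4-2 thus rests on the scaling between arrays.

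SDHA was lowest in C4-2 as well, at 10.65, against 11.27 to 11.58 in PC3, 11.15 and 11.20 in 786-O and 11.39 and 11.40 in T24. These values are of the representing probe, which is also listed for SDHAP3. The SDHA probe listed for no other gene was also lowest in C4-2, at 7.71. Its means in the other lines were 8.14 in PC3, 8.44 in 786-O and 8.59 in T24, so their order rests on the choice of probe. FH was highest in PC3, at 9.50 to 9.60, then C4-2 at 8.98, 786-O at 8.77 and 8.81, and T24 at 8.16 and 8.18. The 4 ranges of FH did not overlap, and its difference between T24 and PC3 was −1.39, with 2.28% of genes lower. Before normalization the FH intensity was 989 to 1146 in PC3, 295 to 309 in T24, 286 in C4-2 and 239 to 248 in 786-O. The order of FH among the lines below PC3 thus rests on the scaling between arrays. CS was lowest in 786-O, at 11.002 and 11.16, with a difference of −0.64 from PC3, and the means of its other lines were 11.62 to 11.86. IDH3A was at 6.60 to 7.21 in all lines.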

How the data were processed

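The slide was read by the authors with Agilent Feature Extraction 11.5.1.1, and the deposited scanner files hold linear, unnormalized intensities per spot in each channel, that is the mean of the spot and the median of its local background. The deposited log10 ratio of Cy5 over Cy3 comes from signals that the scanner software had background-subtracted and dye-normalized, and the deposited series table held the same values. Coordinates are those of GRCh37 per the file headers.

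From the deposited intensities, log2 ratios were computed with limma 3.58.1 in R 4.3.3 by normexp background correction (offset 50) and loess within each array, control spots and 126 to 181 outlier spots per array being left out. The code was tested on simulated data. Mock levels are the log2 Cy3 signal after the same correction and quantile normalization over the 8 arrays, and each probe was compared with itself only. By accession, all 14 member probes matched their gene in the RefSeq table of GRCh38.p14, from which the miRNA sequences were also taken. A gene was counted as past 1.5 or 0.5 on the log2 scale when well above background in both channels. Groups followed the treatment in the labels, with 1 array each, so nothing was tested.

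The members, the 46 pathway genes, the 16 line markers and the rules for naming genes were chosen with earlier results of these data known. Named were the 9 members, pathway genes past 1.0 (there were none) and the 5 genes nearest to IDH1 in their ratios. The alternatives were other background corrections, median centring, the scanner's own ratio, the series table, keeping dim probes, averaging all probes of each gene, a lower threshold (1.0), each ratio minus the median of other arrays, other scalings of the mock levels, and leaving out each mock channel. Loess takes most genes of an intensity to be unchanged, and without a dye swap a dye effect of a probe cannot be separated from the treatment. Some markers, 1 pathway gene and a search of the probe sequences are not reported here.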

Additional observations from a re-analysis of the deposited data

How the results depend on the processing

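IDH1 with miR-199-3p stayed below 0 in all settings run, at −2.18 with plain subtraction, −2.18 with an offset of 0, −2.12 without background correction, −2.22 with the ratio of the scanner software or the deposited table, −2.11 relative to the other arrays' median, and −1.39 with median centring, which took the count of members below −1.5 from 1 to 0. All other counts of members past 1.5 were unchanged, 159 of 160, also at a threshold of 1.0. Median centring moved the median of the members to 0.73 and 0.80 with bisamide at 24 h and 48 h, 0.49 with the miRNA in PC3, 0.66 in C4-2, 0.13 with miR-532-3p, and 0.52 and 0.61 with the 5p and 3p strands of miR-140, and it turned the sign of 39 of 72 ratios of members. The scanner software's ratio and the deposited table gave a median of −0.41 with miR-532-5p. Taking ratios relative to the other arrays' median turned 22 of 72 ratios, and the other alternatives turned 1 to 3 each. The cause was not tested.

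The IDH1 mock level in C4-2 minus PC3 was 2.48 with the scanner's processed signal, 2.44 without background correction, and 2.19 to 2.40 with each PC3 mock left out. Of 225 differences of mock levels under alternatives, 198 moved by less than 0.144, the pooled SD between PC3 mocks. The 225 include 117 from leaving out a mock, of which 0 moved further than that. With the scanner's processed Cy3 signal, 16 of 27 moved further. No paired analysis was possible because there was 1 array per treatment. Signal over background limits OGDH, which was not well above background in the C4-2 and 786-O mocks.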
